A study of Mus musculus with 8 samples.

Results

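Elastic fibre and lysyl oxidase genes are described here in atherosclerotic lesions of mice after antibody treatment against interleukin-1β, or IL-1β. They are 10 of the 24391 gene symbols in the deposited count table. They were chosen by name for their function, but with earlier results of these data known, so the list is not independent of the data. The list holds the elastin gene Eln and the microfibril and interface genes Fbn1, Mfap4, Mfap5 and Emilin1. It also holds the assembly genes Fbln5 and Efemp2 and the cross-linking enzyme genes Lox, Loxl1 and Loxl2. All 10 passed the filter on low counts, as did 15980 genes in all. RNA was sequenced from lesions of the brachiocephalic artery, a short branch of the aortic arch, with 1 library per animal. Lesions from 4 C57BL/6 mice given the IL-1β antibody (IL1_AB in the titles) were set against lesions from 4 C57BL/6 mice given immunoglobulin G (IgG_Control). All 8 mice ate a Western diet for 18 weeks and, per the series' design text, were wild type in a smooth muscle lineage tracing line. The antibody dose, the animals' age and sex, any further allele and the promoter behind the lineage tracing are not given in the sources used here. The labels call the tissue a mixture that holds smooth muscle cells, epithelial cells and macrophages among others. In bulk RNA of this kind, fewer cells of a type and less RNA per cell cannot be told apart.

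Elastic fibres give the arterial wall its recoil. Smooth muscle cells and fibroblasts secrete tropoelastin, the product of Eln, which is deposited on a scaffold of fibrillin microfibrils with the help of fibulins and is then cross-linked by copper-dependent lysyl oxidases. Most arterial elastin is laid down early in life, and broken elastic layers are a known feature of atherosclerotic plaques. IL-1β is a cytokine of activated macrophages, and the study set its neutralisation against IgG in late lesions.

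The libraries held 20137336 to 29453014 counts in genes, of which the 10 genes took 0.201% to 0.326% of them. The lowest count of any of the 10 in any library was 474, for Mfap4. Levels are given as CPM, the usual scaling of a gene's count to its library's total, with totals adjusted by TMM (the trimmed mean of M values). The 8 endothelial markers summed to 1626 to 1858 CPM in antibody lesions and 1582 to 2044 CPM in IgG lesions; smooth muscle and macrophage sums are given further on. Of the markers of tissue around the vessel, summed brown and white adipocyte markers (7 genes) had 3676 to 8989 CPM in antibody lesions, with the highest value in antibody animal 3, and 4511 to 4798 CPM in IgG lesions. Skeletal and cardiac muscle markers (8 genes) summed to 5.51 to 35.2 CPM in antibody lesions and 11.8 to 203 CPM in IgG lesions, highest in IgG animal 2. Thymus markers (6 genes) summed to 7.22 to 66.8 CPM in antibody lesions and 6.50 to 77.5 CPM in IgG lesions. Epithelial and thyroid markers (6 genes) summed to 5.47 to 12.1 CPM in antibody lesions and 8.48 to 30.4 CPM in IgG lesions. The thymic sums were highest in antibody animal 2 and IgG animal 1, where the lymphocyte gene Rag1 had 38.8 and 46.3 CPM; Foxn1, of thymic epithelium, was at 0 in all libraries but IgG animal 1. IgG animal 1 also had the highest epithelial and thyroid sum, with the keratin genes Krt5 and Krt8 at 7.15 and 8.55 CPM, while Epcam had 0 to 0.364 CPM in antibody lesions and 0.0922 to 0.890 CPM in IgG lesions. IgG animal 2 also had the lowest share of alignments assigned to genes, 24.4% in a range up to 34.9%.

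Per length of exon, Eln stood far above the other genes. It averaged 268 ± 29.3 RPKM (CPM divided by exon length in kilobases) in antibody lesions and 321 ± 74.2 RPKM in IgG lesions (SD, n = 4 each), and its lowest library, at 235 RPKM, lay above the highest library of the next gene, Fbn1, at 86.0 RPKM. Eln ranked 170 of 15980 genes by level per length. Below it, every gene's range over the 8 libraries overlapped that of the next gene in the order. The mean levels over 8 libraries ran from Fbn1 (68.4 RPKM) through Fbln5 (53.0), Lox (45.1), Emilin1 (36.4), Mfap4 (35.6), Loxl1 (31.1) and Mfap5 (30.3) to Efemp2 (19.4) and Loxl2 (18.7 RPKM). Fbn1 was above Fbln5, and Fbln5 above Lox, in all 8 libraries despite the overlap of ranges. Loxl1 was above Mfap5 in 3 of 8 libraries and Efemp2 above Loxl2 in 3 of 8, so those neighbours had no fixed order. Among the enzymes, Lox was the most abundant per length and Loxl2 the least.

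**Figure D1:**
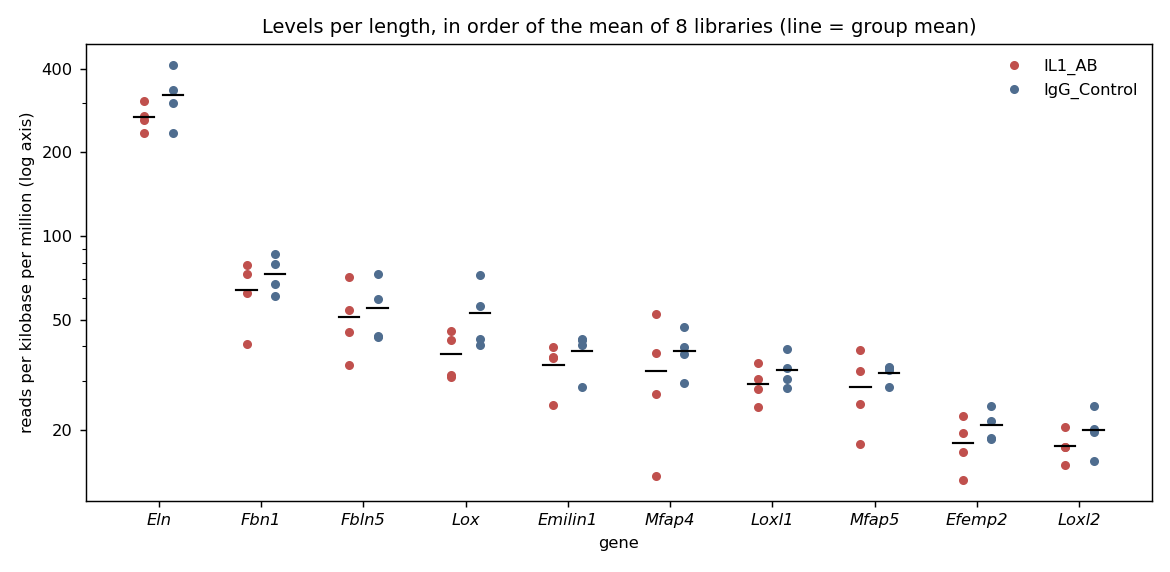
Levels of the 10 genes in RPKM (log axis), with each dot 1 library, IL1_AB on the left and IgG on the right of each gene, and lines at the group means. Eln lies above every other gene in all 8 libraries, and the other 9 form an overlapping series from Fbn1 down to Loxl2.

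Eln, on chromosome 5 from 135178466 to 135223124 (mm9, minus strand), encodes the elastic core protein. It had 1156, 887, 1026 and 991 CPM in antibody animals 1 to 4 and 888, 1564, 1263 and 1139 CPM in IgG animals 1 to 4. The groups overlapped: antibody animal 2 and IgG animal 1 had almost the same low value, and IgG animal 2 was the highest. The means were 1015 ± 111 CPM in antibody lesions and 1214 ± 281 CPM in IgG lesions (SD, n = 4 each), so the spread was wider among IgG animals. With a 95% interval of -0.69 to 0.17, the log2 fold change of -0.26 ± 0.19 (SE) did not pass (adjusted p = 0.9997, edgeR quasi-likelihood test with Benjamini-Hochberg adjustment over all genes). A p-value that misses the threshold does not show that the groups were equal, and the interval reaches from 0.62 to 1.13 times the IgG level.

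Fibrillin-1, the product of Fbn1 (chromosome 2, 125126330 to 125332174), is the backbone of the microfibrils on which elastin is deposited. Fbn1 had 615, 781, 404 and 721 CPM in antibody animals 1 to 4 and 600, 663, 851 and 781 CPM in IgG animals 1 to 4. Antibody animal 3 was alone at the bottom, while antibody animals 1, 2 and 4 lay within the IgG range. The log2 fold change was -0.20 ± 0.22 (SE) and did not pass.

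Mfap4 (chromosome 11, 61298946 to 61302206) and Mfap5 (chromosome 6, 122463694 to 122479305) encode microfibril-associated proteins; the Mfap5 product, also called MAGP-2, binds fibrillins, and the Mfap4 product binds elastin and fibrillin. Mfap4 had 40.9, 78.9, 20.7 and 57.2 CPM in antibody animals 1 to 4, against 71.2, 44.8, 56.7 and 60.3 CPM in IgG animals 1 to 4. The antibody group held both the highest and the lowest of the 8 values, a 3.81-fold range that was the widest of the 10 genes, and the log2 fold change of -0.24 ± 0.34 (SE) had the widest interval of the 10. Mfap5 had 35.0, 54.7, 25.1 and 45.9 CPM in antibody animals 1 to 4 and 46.4, 40.2, 47.1 and 47.4 CPM in IgG animals 1 to 4. It had the same order of antibody animals as Mfap4, with animal 2 highest and animal 3 lowest. Its coefficient of variation was 32.0% in antibody lesions and 7.52% in IgG lesions, and its log2 fold change was -0.17 ± 0.21 (SE).

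Emilin1 (chromosome 5, 31216159 to 31223646) encodes a glycoprotein at the boundary of elastin and microfibrils that also restrains the processing of TGF-β. It had 127, 138, 85.5 and 126 CPM in antibody animals 1 to 4 and 99.4, 140, 148 and 146 CPM in IgG animals 1 to 4. IgG animals 2, 3 and 4 lay above all antibody animals, and IgG animal 1 lay below 3 of them. The log2 fold change was -0.16 ± 0.18 (SE) and did not pass.

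Fbln5 (chromosome 12, 102984775 to 103057329) and Efemp2 (chromosome 19, 5474690 to 5481854) encode fibulin-5 and fibulin-4, which bring tropoelastin to microfibrils; fibulin-4 also binds lysyl oxidase, and mice without it form no proper elastic fibres. Fbln5 had 265, 418, 202 and 319 CPM in antibody animals 1 to 4 and 255, 257, 430 and 350 CPM in IgG animals 1 to 4. Both groups covered nearly the same range, and the log2 fold change was -0.10 ± 0.25 (SE), the smallest of the 10. Efemp2 had 30.7, 41.5, 24.3 and 35.9 CPM in antibody animals 1 to 4 and 34.2, 34.5, 44.9 and 39.6 CPM in IgG animals 1 to 4, with a log2 fold change of -0.21 ± 0.17 (SE). Antibody animals 1 and 3 were the lowest and IgG animal 3 the highest of the 8.

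All 3 pairs among Fbn1, Fbln5 and Efemp2 passed the correlation test across the 8 animals by both Pearson's and Spearman's coefficients, as set out further on, and RefSeq gives promoter windows for all of them. The windows span 250 bases before to 50 bases after a gene's start, and the outermost start of each gene is shown 5′ to 3′. These genes are shown because their pairs passed by both coefficients. Emilin1 passed with Fbn1 and Efemp2 by Pearson's r only, and its window is not shown. Promoter windows for 4 of the 10 genes (these and Emilin1) were in the RefSeq table used, which is in the GRCm38.p6 build, while the count table is in mm9. Capitals mark the GC box GGGCGG, read on either strand:
Fbn1 (chr2:125506389-125506688, minus strand, GRCm38.p6): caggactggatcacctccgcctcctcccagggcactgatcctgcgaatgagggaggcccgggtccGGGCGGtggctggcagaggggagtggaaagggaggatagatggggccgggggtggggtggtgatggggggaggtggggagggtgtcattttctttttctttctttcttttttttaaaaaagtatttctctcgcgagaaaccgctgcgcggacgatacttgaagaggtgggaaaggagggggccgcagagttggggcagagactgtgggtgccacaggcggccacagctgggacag
Fbln5 (chr12:101819070-101819369, minus strand, GRCm38.p6): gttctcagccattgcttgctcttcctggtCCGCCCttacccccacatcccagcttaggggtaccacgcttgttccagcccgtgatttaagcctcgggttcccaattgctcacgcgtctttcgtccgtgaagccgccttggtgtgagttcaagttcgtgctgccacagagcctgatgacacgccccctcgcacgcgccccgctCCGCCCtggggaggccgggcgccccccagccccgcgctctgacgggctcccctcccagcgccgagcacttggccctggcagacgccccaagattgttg
Efemp2 (chr19:5473696-5473995, plus strand, GRCm38.p6): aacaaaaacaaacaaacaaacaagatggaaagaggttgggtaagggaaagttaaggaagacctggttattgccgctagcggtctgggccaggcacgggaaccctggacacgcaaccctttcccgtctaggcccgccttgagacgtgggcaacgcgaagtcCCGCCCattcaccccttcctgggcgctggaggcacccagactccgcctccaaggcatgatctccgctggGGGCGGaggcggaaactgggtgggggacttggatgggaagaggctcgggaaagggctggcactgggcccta
The Fbn1 window has 1 GC box, at positions -185 to -180 from the first transcribed base, and the Fbln5 and Efemp2 windows have 2 each. A GC box occurs in 35.7% of all 32851 promoter windows of this length. The AP-1 site TGANTCA (7.81% of windows), the SMAD element CAGACA (21.0%), the TATA box TATAAA (13.6%), the CArG box of smooth muscle genes (1.63%) and the NF-kB site (8.46%) were searched on both strands and matched none of the 3 windows shown. At other RefSeq starts, which are not shown, the second Fbln5 window has a SMAD element at -15 to -10, and the other Efemp2 windows, which overlap each other, have 5 and 7 GC boxes. The Emilin1 window has a SMAD element at -129 to -124 and no GC box. These are descriptions of letters in a window and say nothing of binding.

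Lysyl oxidases oxidise lysines of elastin and collagen so that the chains cross-link. Lox (chromosome 18, 52675714 to 52689521), the founding member, had 155, 208, 153 and 224 CPM in antibody animals 1 to 4, against 210, 200, 356 and 276 CPM in IgG animals 1 to 4. Antibody animals 1 and 3 lay below all IgG animals and IgG animals 3 and 4 above all antibody animals, while the middle values overlapped. The means were 185 ± 36.3 CPM in antibody lesions and 260 ± 72.3 CPM in IgG lesions (SD, n = 4 each). The log2 fold change of -0.49 ± 0.21 (SE, 95% interval -0.97 to -0.015) was the largest in size of the 10 genes, corresponding to 0.71 times the IgG level. It had an unadjusted p of 0.0446 and an adjusted p of 0.9997 in edgeR, and so did not pass. Over the 15 alternatives its adjusted p was at least 0.193. Its unadjusted p was under 0.05 in 8 of the 15, among them DESeq2 (0.0306), limma-voom (0.0026) and edgeR without IgG animal 2 (0.0223). In edgeR it was 0.113 without antibody animal 1, 0.109 without antibody animal 3, 0.138 without IgG animal 3 and 0.0903 without IgG animal 4. Without IgG animal 3 the log2 fold change was -0.30.

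Loxl1 (chromosome 9, 58135530 to 58161019), the family member most tied to elastin, since mice without it fail to renew elastic fibres, had 102, 116, 80.7 and 93.7 CPM in antibody animals 1 to 4 and 94.7, 131, 102 and 112 CPM in IgG animals 1 to 4. The interval around its log2 fold change of -0.16 ± 0.14 (SE) ran from -0.48 to 0.16. Loxl2 (chromosome 14, 70009283 to 70095641), which acts on collagen IV and other substrates, had 89.9, 89.8, 77.6 and 106 CPM in antibody animals 1 to 4 and 80.3, 104, 126 and 102 CPM in IgG animals 1 to 4. Its log2 fold change was -0.18 ± 0.15 (SE). For both genes IgG animal 1 was the lowest of its group and antibody animal 3 the lowest of the 8, and the groups overlapped.

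**Figure D2:**
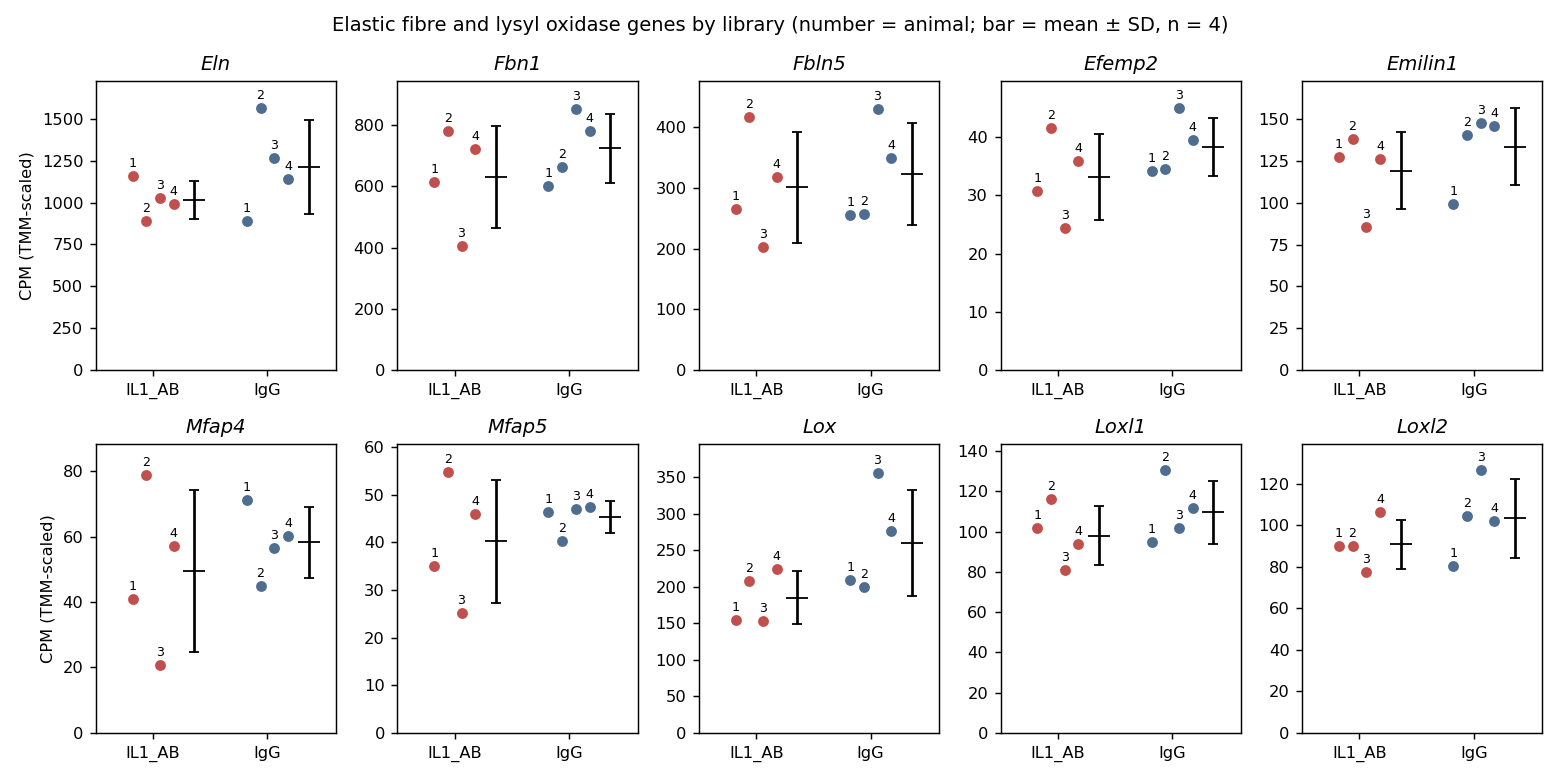
CPM (TMM-scaled) of each of the 10 genes, with IL1_AB on the left and IgG on the right, each dot 1 library numbered by animal, and bars at the mean ± SD (n = 4). In 9 of the 10 panels antibody animal 3 is the lowest of the 8 dots; in the Eln panel it lies inside its group, and the groups overlap in all panels.

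All 10 genes had log2 fold changes below 0, and none passed the test. The median was -0.19 over the 10 genes and -0.01 over all genes kept, and 52.3% of all genes were below 0. All 10 were at -0.1 or lower, as were 28.4% of all genes. The share of all genes past an adjusted p of 0.05 in edgeR was 0%, with a smallest adjusted p of 0.208; DESeq2 called 8 genes and limma-voom 2, and none of the 10 was among these. An unadjusted p under 0.05 was reached by 509 genes (3.19%; 2.06% with lower values in antibody lesions) and by 1 of the 10, Lox, which was lower. The 4 antibody and 4 IgG values did not overlap for 1.96% of all genes (1.25% with antibody values lower) and for 0 of the 10. For 9 of the 10, all but Mfap4, the 95% interval lay within a 2-fold difference in either direction; the median half-width over the 10 was 0.45 on the log2 scale.

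The size of the common difference rested largely on a single animal. Antibody animal 3 had the lowest value of the 8 libraries for 9 of the 10 genes, all but Eln, and IgG animal 3 had the highest for 6. Without antibody animal 3, 8 of the 10 genes were below 0 (54% of all genes), 3 were at -0.1 or lower (28.4% of all genes), and the median was -0.06. In that fit Fbln5 and Mfap4 were at 0.05 and 0.02, Mfap5 at -0.0009 and Fbn1 at -0.04. Eln was at -0.26 and Lox at -0.41, neither of which passed. Eln turned on other animals: its log2 fold change was -0.11 without IgG animal 2, its highest library, and -0.38 without IgG animal 1, and neither passed. Without antibody animal 2, whose mean rank over the 10 genes was 5.6 of 8, the median was -0.31 and all 10 were below 0, so the value moved in the other direction.

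**Figure D3:**
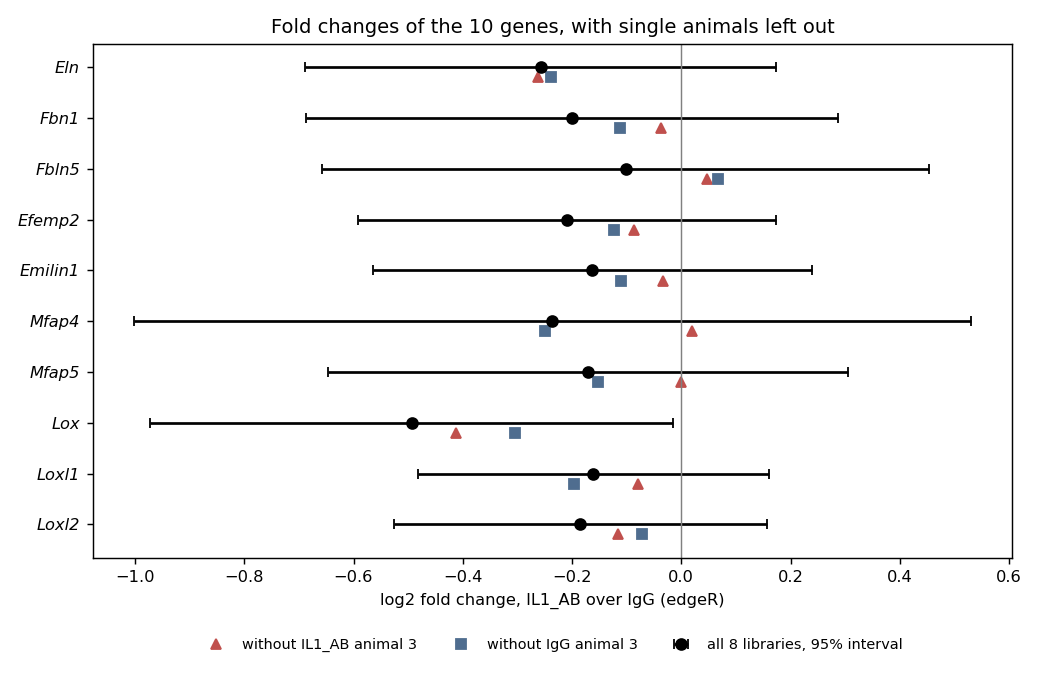
Log2 fold changes of antibody over IgG for the 10 genes, with black dots and bars for all 8 libraries with their 95% intervals, triangles for the fit without antibody animal 3 and squares for the fit without IgG animal 3. All black dots lie below 0, the Lox interval alone stops short of 0 (-0.97 to -0.015), and the triangles of Fbn1, Emilin1, Mfap4, Mfap5 and Fbln5 lie close to 0.

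In summed cell type markers, antibody animal 3 lay at an end of the range for several lists. Antibody animal 3 had the lowest sum of the 10 contractile smooth muscle markers (1562 CPM; the other antibody animals reached 4256 CPM, and IgG animals had 2399 to 3152 CPM). It was also lowest for the 8 modulated smooth muscle markers (7207 CPM, against 7492 to 21378 CPM in IgG animals) and the 10 adventitial fibroblast markers (1631 CPM, against 2047 to 2942 CPM in IgG animals). The modulated sum was close to those of IgG animals 1 and 2 (7492 and 7793 CPM). Of the modulated genes, Spp1, Fn1, Col8a1 and Lgals3 were not lowest in antibody animal 3. Nor were Des and Smtn of the contractile list, or Ly6a, Ly6c1 and Clec3b of the fibroblast list. Antibody animal 3 was highest for the summed adipocyte markers (8989 CPM), with the thermogenic gene Ucp1 at 3060 CPM, against 825 to 1275 CPM in IgG animals. Cidea, Adipoq, Plin1 and Fabp4 were also highest there. The other listed genes went the other way: Lep, at 7.39 CPM, was the lowest of the 8 libraries, and Cfd, at 279 CPM, the lowest of the antibody animals. Its macrophage sum ranked 4 of 8 and its endothelial sum 3 of 8 from the lowest. IgG animal 3, the highest library for 6 of the 10 genes, had the highest modulated smooth muscle sum (21378 CPM) and the highest macrophage sum (10749 CPM). Between the groups, the modulated smooth muscle markers had a median of 10298 CPM in antibody and 11069 CPM in IgG lesions, and 8 of 8 had a log2 fold change below 0. The contractile markers had a median of 2954 CPM in antibody and 2718 CPM in IgG lesions, with 2 of 10 below 0. The fibroblast markers had medians of 2237 CPM in antibody and 2466 CPM in IgG lesions, with 10 of 10 below 0. The macrophage markers had medians of 4974 CPM in antibody and 7340 CPM in IgG lesions, with 9 of 9 below 0. Their sums ran from 4715 to 6995 CPM in antibody and 4024 to 10749 CPM in IgG lesions. The groups thus overlapped, and IgG animal 1 had the lowest macrophage sum of the 8. Of all genes kept, 52.3% were below 0. The part of cell makeup in the values of the 10 genes was not tested.

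**Figure D4:**
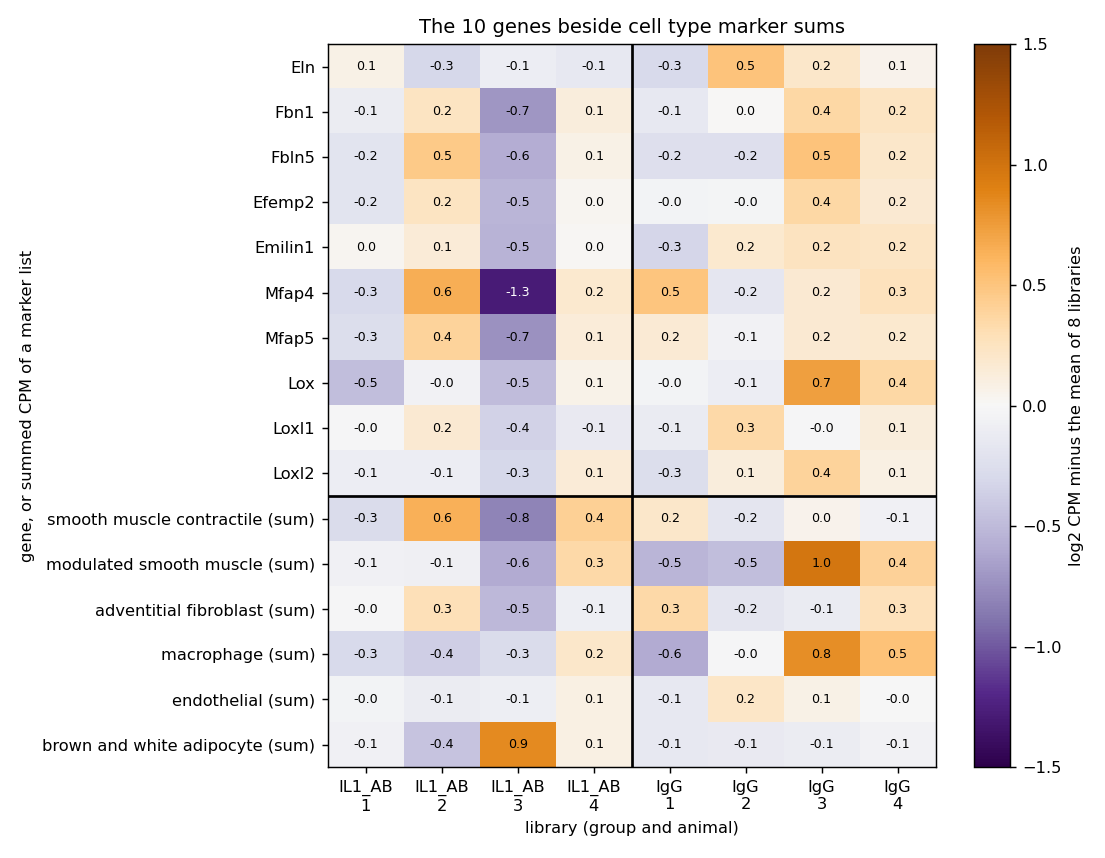
Log2 CPM of each gene (upper rows) and of summed marker lists (lower rows) in each library, minus the mean of the 8 libraries, with IL1_AB libraries on the left and IgG libraries on the right. The column of antibody animal 3 is low for 9 genes and for the smooth muscle and fibroblast sums and high for the adipocyte sum (8989 CPM), while the Eln row is highest in IgG animal 2.

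Across the 8 animals the genes were positively correlated in 42 of 45 pairs, and fewer pairs passed the test. Of the 45 pairs, 12 passed an adjusted p of 0.05 for Pearson's r of log2 CPM and 3 for Spearman's rho (exact permutation over all pairings of the libraries, two-sided, Benjamini-Hochberg over 45). No pair with Eln or Loxl1 was among the 12, and Efemp2 was in 6 of them. The pairs had a median r of 0.67, the 36 pairs without Eln 0.77 (range 0.27 to 0.98), and the 9 pairs with Eln 0.15 (range -0.27 to 0.57). The coefficients were also taken without the 2 libraries farthest from the median of the first gene of a pair. The 9 Eln pairs then had a median of 0.47 and the other 36 pairs 0.49. For Eln, IgG animal 2 and antibody animal 2 were left out, and for other genes other libraries. Those medians are therefore not over the same animals and cannot show what the gap rested on. As deviations from the group means, the 36 pairs had a median of 0.75 and the 9 Eln pairs -0.15. All genes share the same libraries and scaling, and the members' common low value in antibody animal 3 enters most pairs. No share of positive or passing pairs among other genes is given here. The counts of 42 and 12 pairs are therefore not shown to be particular to these genes.

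The highest coefficients joined fibrillin-1, the fibulins and the microfibril-associated genes. Fbn1 and Efemp2 had r = 0.97 (exact permutation p = 0.000149, adjusted 0.00335) and rho = 0.95 (exact permutation p = 0.00114, adjusted 0.0257). Without the libraries farthest from the Fbn1 median, antibody animal 3 and IgG animal 3, r was 0.897. Fbln5 and Efemp2 had r = 0.94 (exact permutation p = 0.000223, adjusted 0.00335) and rho = 0.93 (exact permutation p = 0.00223, adjusted 0.0335), and r = 0.907 without IgG animal 3 and antibody animal 2. Fbn1 and Fbln5 had r = 0.91 (exact permutation p = 0.000174, adjusted 0.00335) and rho = 0.95 (exact permutation p = 0.00114, adjusted 0.0257), and r = 0.913 without antibody animal 3 and IgG animal 3. Efemp2 and Mfap5 had r = 0.92 (exact permutation p = 0.00196, adjusted 0.0147) and rho = 0.86 (exact permutation p = 0.0107, adjusted 0.0804), and r = 0.912 without antibody animal 3 and IgG animal 3. The highest of all, Mfap4 and Mfap5, had r = 0.98 (exact permutation p = 0.000347, adjusted 0.00391) and rho = 0.88 (exact permutation p = 0.00724, adjusted 0.0652), and r = 0.892 without antibody animals 1 and 3.

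No pair of Eln with a cross-linking enzyme passed the threshold. By Pearson's r over all 8 libraries, Eln's highest coefficients were nevertheless with enzymes. Eln and Loxl2 had r = 0.57 (exact permutation p = 0.138, adjusted 0.215) and rho = 0.55 (exact permutation p = 0.171, adjusted 0.285), and r = 0.675 without IgG animal 2 and antibody animal 2. Eln and Loxl1 had r = 0.52 (exact permutation p = 0.185, adjusted 0.260) and rho = 0.31 (exact permutation p = 0.462, adjusted 0.594), and r = 0.505 without the same libraries. Emilin1, not an enzyme gene, came next with r = 0.47 (exact permutation p = 0.243, adjusted 0.318). Its rho of 0.55 with Eln (exact permutation p = 0.171, adjusted 0.285) equalled that of Loxl2. Without the same libraries its r of 0.701 was the highest of the Eln pairs. Eln and Lox had r = 0.18 (exact permutation p = 0.657, adjusted 0.714) and rho = 0.02 (exact permutation p = 0.977), and r = 0.434 without IgG animal 2 and antibody animal 2. The lowest coefficient of Eln was with a microfibril gene: Eln and Mfap4 had r = -0.27 (exact permutation p = 0.499, adjusted 0.576) and rho = -0.64 (exact permutation p = 0.0962, adjusted 0.206), and r = -0.08 without IgG animal 2 and antibody animal 2. Within the enzyme family, Lox and Loxl2 had r = 0.80 (exact permutation p = 0.0188, adjusted 0.0544) and rho = 0.67 (exact permutation p = 0.0831, adjusted 0.206). Without IgG animal 3 and antibody animal 3, r was 0.387. Leaving out the libraries farthest from the Lox median also narrows its range, so the lower r cannot show that the relation rests on them. Lox and Loxl1 had r = 0.27, and Loxl1 and Loxl2 r = 0.42; neither passed. For every 1000 Eln counts there were 134, 234, 149 and 226 Lox counts in antibody animals 1 to 4, against 236, 128, 282 and 242 in IgG animals 1 to 4. This ratio within a library needs no scaling; it is low in antibody animals 1 and 3 and IgG animal 2, which was the animal with the most Eln.

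**Figure D5:**
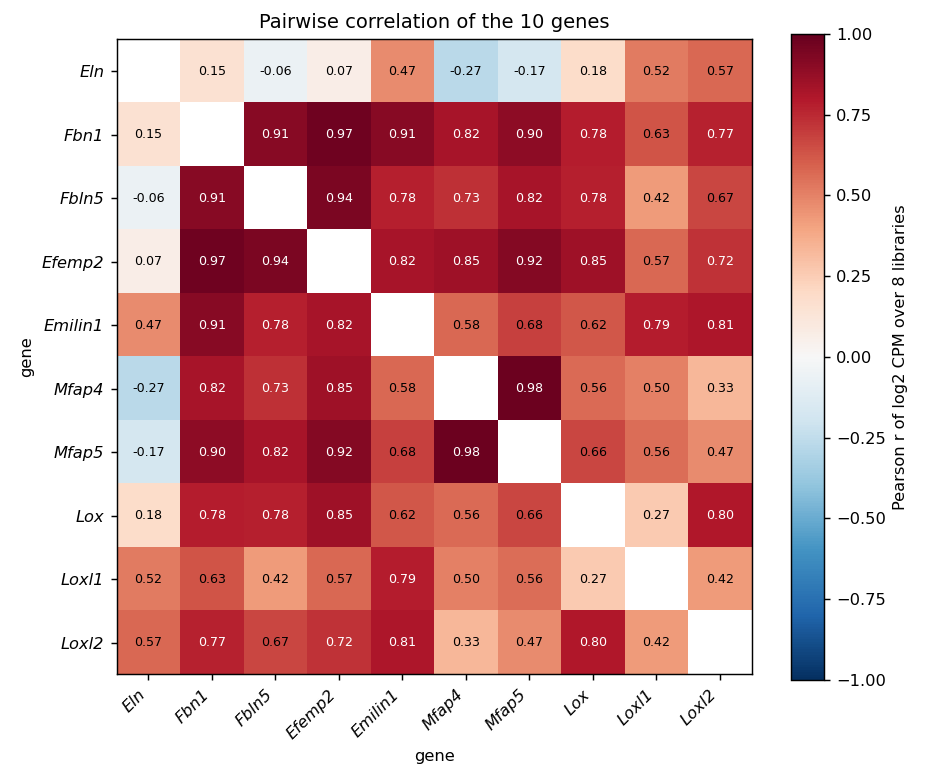
Pearson's r of log2 CPM over the 8 libraries for each of the 45 pairs of genes, on a scale of -1 (blue) to 1 (red). The Eln row is pale (-0.27 to 0.57), while the block of Fbn1, Fbln5, Efemp2, Mfap4 and Mfap5 is dark.

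Of genes with a given name outside the 10, those most like Eln over the 8 libraries were Sigirr, a receptor that dampens IL-1 and Toll-like receptor signalling (r = 0.986), Phf23 (r = 0.980), the slingshot phosphatase gene Ssh3 (r = 0.977), Fgd3 (r = 0.974) and the chromatin remodelling gene Smarcd2 (r = 0.964). Those most like Lox were the chromatin gene Atad2 (r = 0.985), the selenoprotein P gene Sepp1 (r = 0.975), the cytokinesis gene Cep55 (r = 0.973), the autophagy kinase gene Ulk2 (r = 0.972) and Krit1 (r = 0.972). These are the highest coefficients among all named genes kept, over 8 libraries, and are given as a description. The lists for Eln and Lox shared no gene.

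Other genes of the pathway were read from lists of names, with no test of a list. Of 14 other microfibril and elastic fibre genes, 10 were below 0 and 4 above (median -0.13), with 0 past the threshold. Fbn2, the fibrillin known mainly from development, was one of the 4 above 0. It had 1.22, 1.61, 1.44 and 1.66 CPM in antibody animals 1 to 4 and 1.13, 0.968, 0.469 and 0.270 CPM in IgG animals 1 to 4. All 4 antibody values lay above all 4 IgG values, at 25 to 46 counts per antibody library and 8 to 33 per IgG library. The log2 fold change of Fbn2 was 1.07 ± 0.42 (SE; interval 0.14 to 2.01 at 95%), with an unadjusted p of 0.0284 and an adjusted p of 0.9997 (edgeR). Emilin2, a relative of Emilin1, had -0.28 ± 0.17, Efemp1, which encodes fibulin-3, -0.33 ± 0.29, and the matrix gene Vwa1 0.20 ± 0.13.

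Of 11 genes for other lysyl oxidases, copper supply and propeptide processing, 8 were below 0 (median -0.08) and 0 passed. Pcolce, which encodes an enhancer of procollagen processing, had 65.5, 82.7, 56.5 and 69.7 CPM in antibody animals 1 to 4 and 77.9, 77.7, 92.4 and 87.1 CPM in IgG animals 1 to 4, with a log2 fold change of -0.29 ± 0.13 (SE, unadjusted p = 0.0516, edgeR). Antibody animal 2 was the only antibody animal inside the IgG range. Bmp1 and Tll1, whose proteases release active lysyl oxidase from its propeptide, had -0.21 ± 0.16 and -0.27 ± 0.19, and Loxl3 had -0.15 ± 0.12. Without IgG animal 3, 5 of the 11 were below 0, as were 49.2% of all genes.

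Of 11 genes for latent TGF-β binding proteins and for fibrillin-binding ADAMTS and ADAMTS-like proteins, 6 were below 0 and 5 above (median -0.05), and 0 passed. Adamtsl2, which binds fibrillin-1, had -0.32 ± 0.18, Adamtsl5 -0.13 ± 0.12, Adamts10 -0.21 ± 0.26 and Adamts17 0.34 ± 0.39. The count was 1 of 11 below 0 without antibody animal 3 and IgG animal 2 together, where 48.2% of all genes were below 0.

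Of 16 listed proteases and inhibitors, 13 passed the filter (Mmp7, Elane and Serpina1a did not), 11 of these were below 0 (median -0.12) and 0 passed. The macrophage elastase gene Mmp12 averaged 1037 CPM in antibody and 887 CPM in IgG lesions, with a log2 fold change of 0.23 ± 0.30, and Ctss, the cathepsin S gene, 1279 CPM in antibody and 1525 CPM in IgG lesions, with -0.25 ± 0.32; both are named after their values were seen. Slpi, an inhibitor of neutrophil elastase, had 0.439, 0.841, 0.481 and 1.17 CPM in antibody animals 1 to 4, against 1.37, 0.738, 2.85 and 2.67 CPM in IgG animals 1 to 4. Its log2 fold change was -1.37 ± 0.48 (SE, unadjusted p = 0.0187, edgeR), at 9 to 29 counts per antibody library, and the groups overlapped. Mmp14 had -0.37 ± 0.26, Timp1 -0.44 ± 0.37 and Prtn3 -0.58 ± 0.50. Without IgG animal 3, 5 of the 13 genes were below 0, as were 49.2% of all genes.

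Of 10 genes for the elastin receptor complex and for integrins that bind elastic fibre proteins, 8 were below 0 (median -0.09) and 0 passed. Glb1 and Ctsa, of the lysosomal complex from which the elastin receptor is formed, had -0.19 ± 0.19 and -0.19 ± 0.21, and the integrin genes Itgb3 and Itgb5 0.20 ± 0.14 and -0.10 ± 0.13. The count below 0 was 4 of 10 without antibody animal 3 (54% of all genes) and 3 of 10 without IgG animal 3 (49.2% of all genes).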

How the data were processed

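The deposited tables hold raw counts per gene symbol for 8 libraries and alignments by status. The authors used featureCounts 1.4.6-p4 on exons, per the file headers, and grouped them by gene name in the UCSC mm9 annotation, with no option shown for strand, pairs or multiple alignments. Ambiguous and multimapping alignments are unassigned classes in the deposited status table. Loxl2 shares 7 exon bases with Mir6950; no other of the 10 genes shares exon bases with another gene. The submitters' processing notes also name CASAVA, STAR 3.0, Subread and DESeq2, with no role given. The deposited exon length is the authors' value.

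Groups came from sample titles. Genes were kept by filterByExpr (minimum count 10, minimum total 15) and fitted over all 15980 kept genes with edgeR 4.0.16 (R 4.3.3; TMM, robust quasi-likelihood F-test, ~ group), with Benjamini-Hochberg adjustment and a threshold of 0.05. The fit was tested on simulated data with known changes. It called 4% of genes with a true log2 change of 0.5 in size, 60% at 1, 86% at 2 and 96% at 3. It also called 8 genes that had no true change. Changes of the size seen in the 10 genes would thus mostly be missed in such data. The simulation drew each gene independently, so it lacks variation that real libraries share across genes. Log2 CPM used a prior count of 2. RPKM divided TMM-scaled CPM by exon length. Correlations used scipy 1.17.1. Alternatives were DESeq2 1.42.0, limma 3.58.1 (voom with quality weights), other scalings, no filter, a replicate block, and leaving out animals. Named genes were the 10, up to 4 per pathway list with the smallest p, and the 5 most like Eln and Lox. Mmp12 and Ctss were added after their values were seen. Fn1 is in both the modulated smooth muscle and the lysyl oxidase list. The genes and lists were chosen with earlier results of these data known.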

Additional observations from a re-analysis of the deposited data

Results flagged for a closer look

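In 2 of 60 groups checked (30 named genes in 2 groups of 4 animals each), 1 animal lay apart from the others by Dixon's criterion for groups of 4 samples; chance gives about 1 in 20. Emilin1 had 99.4 CPM in IgG animal 1, while the other IgG animals had 140 to 148 CPM. Mfap5 had 40.2 CPM in IgG animal 2, while the other IgG animals had 46.4 to 47.4 CPM. In both genes the antibody group spanned these values.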

How the results depend on the processing

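The number of the 10 genes below 0 was 8 to 10 over the 15 alternatives, and their median log2 fold change stayed below 0 (-0.31 to -0.06). None of the 10 passed an adjusted p of 0.05 in any of them. Eln, Fbn1, Efemp2, Mfap5, Lox and Loxl2 were below 0 in all 15. Signs turned, with no call involved, for Fbln5 (-0.30 to 0.067 with animals left out, above 0 without antibody animal 3, at 0.048, or IgG animal 3) and Mfap4 (-0.55 to 0.019, above 0 without antibody animal 3). They also turned for Emilin1 (-0.28 to 0.0092) and Loxl1 (-0.26 to 0.031), both above 0 without antibody animal 3 and IgG animal 2 together, an alternative chosen after seeing the data; the cause was not tested. The count of all genes past the threshold was 0 in edgeR, 8 in DESeq2, 2 in limma-voom and 0 to 1 with animals left out. Genes at an unadjusted p under 0.05 numbered 509, against 310 to 1517 with animals left out and 2762 in limma-voom. Counts of genes below 0 in the pathway lists ranged, with animals left out, from 7 to 10 of 14 (microfibril), 5 to 9 of 11 (lysyl oxidase and copper), 1 to 9 of 11 (latent TGF-β binding), 5 to 11 of 13 (proteases) and 3 to 9 of 10 (receptors). The labels do not say whether a shared number pairs animals. Correlations of same-numbered animals' deviations were 0.29, -0.34, -0.13 and -0.001, and those of different-numbered animals -0.52 to 0.46. So few values cannot decide whether animals were paired. With the replicate number as a block, 0 genes passed, all 10 genes stayed below 0 (median -0.23), Lox had -0.47 (unadjusted p = 0.0725, edgeR) and 361 genes had an unadjusted p under 0.05. The order of levels was the same in TPM. The median r among the 10 genes was 0.64 on deviations and 0.71 with total-count scaling.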

Other observations

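Eln made up 44.2%, 31.5%, 48.9% and 36.4% of the counts of the 10 genes in antibody animals 1 to 4, and 37.3%, 49.2%, 36.9% and 37.3% in IgG animals 1 to 4. The other 9 genes summed to 1461, 1925, 1074 and 1729 CPM in antibody animals 1 to 4 and to 1492, 1615, 2161 and 1915 CPM in IgG animals 1 to 4. The animals richest in Eln relative to the rest were antibody animals 1 and 3 and IgG animal 2, so this split crossed the treatment groups.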
